A study of Mus musculus with 123 samples.

Results

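Among single neurons of the mouse dorsal root ganglion (DRG) taken 3 days after sciatic nerve transection (SNT), 30 were axotomized by their Atf3 level, and these were divided into 18 Npy-positive and 12 Npy-negative neurons. Members were chosen by measured values. Of the 41 SNT-side cells kept after the authors' removal of outliers, those with Atf3 of 500 CPM (counts scaled to a library total of 1000000) or more were selected, and they were split at Npy above 10 CPM against 10 CPM or less. The day-3 cells came from L5 DRGs of 2-month-old female F1 mice of a CAST/Eij father and a C57BL/6 mother. The study's methods name L3 to L5 DRGs for days 3 and 7 and also L5 for the single neurons. The series holds 123 libraries in all, of which 106 are kept single cells. The right nerve was cut at mid thigh, and the DRG of the other side of the same mice served as control, with 18 kept cells at day 3. The other 11 kept SNT-side cells at day 3 were below the Atf3 limit. At day 7, 33 SNT-side and 14 control-side cells were kept, from L3 to L5 DRGs of 2-month-old C57BL/6 mice of both sexes. Each library is 1 neuron picked by hand and amplified by Smart-seq2, and the labels name no animal for any cell, so the cells of 1 side and day count as 1 sample. Differences below are therefore described without a test, and an SD is always a spread over cells.

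DRG neurons relay touch, body position, temperature and pain from the periphery to the spinal cord. Large neurons with myelinated axons carry mostly touch and position and contain much neurofilament, whereas small neurons with unmyelinated axons include nociceptors and are rich in peripherin and, in many of them, the ATP-gated channel subunit P2rx3. After a peripheral nerve is cut, the injured neurons switch on the transcription factor Atf3, a standard mark of axotomy, and several of them begin to make neuropeptides that they hardly contained before. Neuropeptide Y (Npy) is classically described in axotomized large neurons, and galanin (Gal) and neurotensin (Nts) are also peptides that act through G protein-coupled receptors.

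The 250 bases before the start sites of the 3 peptide genes and of Scg2, the dense-core vesicle gene with the largest difference between the groups, are given below because they are the regulatory sequences closest to the genes the comparison turns on. Sequences are from RefSeq on GRCm38.p6, a later build than the mm9 used by the authors, and are written 5′ to 3′ on the strand of the gene, with any match to the AP-1 motif TGANTCA or the CRE motif TGACGTCA in capitals.
Npy, chr6:49822460-49822709, plus strand: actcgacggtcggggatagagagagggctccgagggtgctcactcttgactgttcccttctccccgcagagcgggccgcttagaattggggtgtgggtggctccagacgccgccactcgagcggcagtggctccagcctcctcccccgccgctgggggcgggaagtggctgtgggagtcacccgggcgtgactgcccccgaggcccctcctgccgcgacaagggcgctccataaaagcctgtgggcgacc
Gal, chr19:3414545-3414794, minus strand: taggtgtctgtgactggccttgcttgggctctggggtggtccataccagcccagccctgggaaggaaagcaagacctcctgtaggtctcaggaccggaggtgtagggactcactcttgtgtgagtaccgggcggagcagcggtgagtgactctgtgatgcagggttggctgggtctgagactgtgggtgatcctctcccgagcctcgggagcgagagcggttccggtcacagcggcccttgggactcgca
Nts, chr10:102490419-102490668, minus strand: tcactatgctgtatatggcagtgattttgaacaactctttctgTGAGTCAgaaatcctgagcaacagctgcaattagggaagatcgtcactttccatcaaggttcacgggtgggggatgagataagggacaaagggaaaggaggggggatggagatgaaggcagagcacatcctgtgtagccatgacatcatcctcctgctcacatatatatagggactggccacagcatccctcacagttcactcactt
Scg2, chr1:79440027-79440276, minus strand: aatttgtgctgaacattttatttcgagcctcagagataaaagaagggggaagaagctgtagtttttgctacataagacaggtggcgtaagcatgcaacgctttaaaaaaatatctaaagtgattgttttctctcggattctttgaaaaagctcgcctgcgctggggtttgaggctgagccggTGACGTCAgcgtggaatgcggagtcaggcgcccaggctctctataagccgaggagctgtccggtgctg
Each motif reads the same on both strands, and neither contains the other. The Nts window held 1 AP-1 match, 207 to 201 bases before the start, and the Scg2 window held 1 CRE match, 68 to 61 bases before it. Neither motif was found in the Npy or Gal windows. Over all 32851 promoter windows of this length, 6.75% held the AP-1 motif and 1.55% the CRE motif, so a match is a description of the sequence and not evidence of a site.

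No axotomized cell of day 3 had Npy between 5.21 and 18.0 CPM, where the limit fell (plot of selection genes, peptides and size markers). On a log scale this step was of the same order as those beside it. Npy was 18.0 CPM in the lowest Npy-positive cell, neuron 36, and 41.3 CPM in the next, whereas it was 5.21 CPM in the highest Npy-negative cell, neuron 46, and 1.88 CPM in the next below. Among the Npy-positive cells it ran from 18.0 through a median of 358 to 3006 CPM, and among the Npy-negative cells from 0 through 0.681 to 5.21 CPM. The lowest Atf3 of a selected cell was 951 CPM and the highest of a kept cell left out was 23 CPM, so no kept cell lay near the limit. In the control-side cells of day 3 the median Npy was 0 and the highest 9.50 CPM, and in the 11 SNT-side cells with little Atf3 the highest was 1.497 CPM. These values chose the groups and carry no result of their own.

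**Figure D1:**
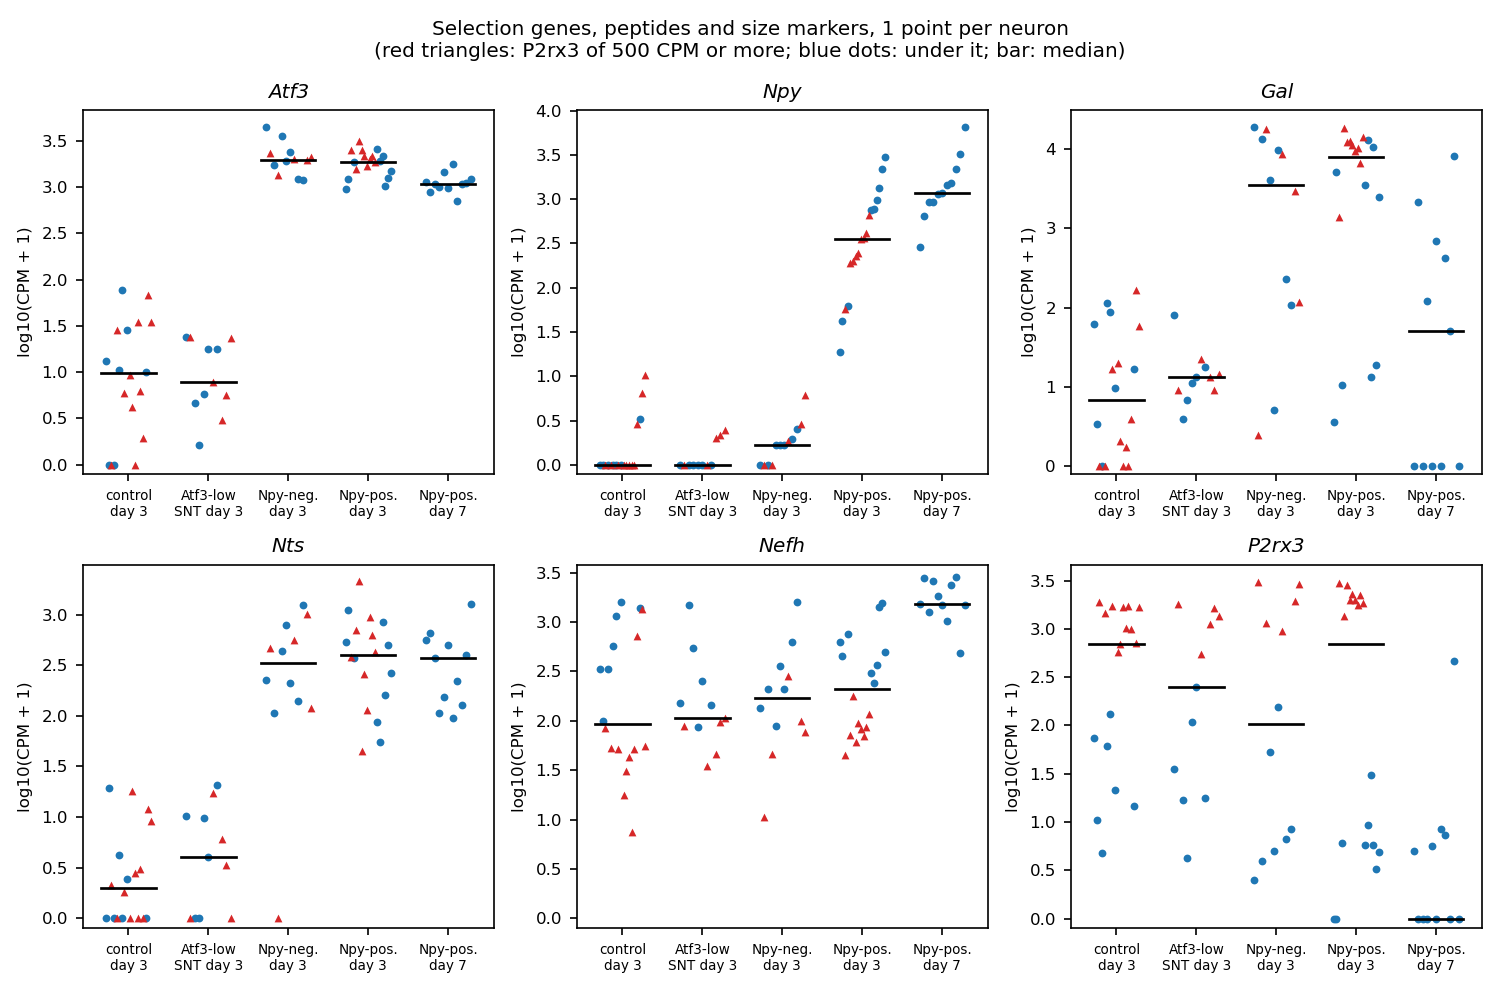
Levels of Atf3, Npy, Gal, Nts, Nefh and P2rx3 as log10(CPM + 1), 1 point per neuron and ordered by Npy within each set, in control-side cells of day 3 (18), SNT-side cells of day 3 with Atf3 under 500 CPM (11), Npy-negative (12) and Npy-positive (18) axotomized cells of day 3, and Npy-positive axotomized cells of day 7 (11). Bars are medians and red triangles are cells with P2rx3 of 500 CPM or more. Gal, Nts, Nefh and P2rx3 spread over the same range in the Npy-negative and Npy-positive cells of day 3, and the day-7 cells lie high in Nefh.

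Library size did not set the groups far apart. The Npy-positive libraries held 994520 to 1849130 counts on genes (median 1352530) and the Npy-negative libraries 634196 to 1534139 (median 1254054), and the median number of genes above 10 CPM was 8351 in the first and 8342 in the second. Atf3 itself was 1896 ± 591 CPM (SD, n = 18) in Npy-positive cells and 2190 ± 957 CPM (SD, n = 12) in Npy-negative cells. The ranges of 951 to 3145 and 1202 to 4436 CPM overlapped.

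Over the 30 cells together, Gal and Nts did not follow Npy. Gal was 7352 ± 5926 CPM (SD, n = 18) in Npy-positive and 6371 ± 7237 CPM (SD, n = 12) in Npy-negative cells, a log2 ratio of mean CPM + 1 of 0.21, and the Npy-positive cell was the higher one in 55.6% of all pairs of cells. In Npy-positive cells Gal ran from 2.57 through a median of 8081 to 18677 CPM, and in Npy-negative cells from 1.49 through 3500 to 18957 CPM. Each group thus held cells with almost no Gal beside cells with a great deal. Gal reached 1000 CPM in 14 of 18 Npy-positive cells (77.8%, 95% exact binomial interval 52.4% to 93.6%) and in 7 of 12 Npy-negative cells (58.3%, 27.7% to 84.8%). The binomial intervals take cells as independent draws, which the labels cannot show, and leave out any difference between animals. Poisson intervals on summed counts, used below, cover counting error only. Smart-seq2 carries no molecular identifiers, so amplified copies were counted as separate reads. The 4 Npy-positive cells under 1000 CPM, neurons 36, 4, 11 and 3, had 2.57, 9.61, 12.4 and 17.9 CPM of Gal. All 4 had P2rx3 of at most 29.7 CPM. Among P2rx3-high cells Gal reached 1000 CPM in 9 of 9 Npy-positive and 3 of 5 Npy-negative cells, and among P2rx3-low cells in 5 of 9 and 4 of 7. The log2 ratio of Gal was 0.86 in P2rx3-high cells (75.6% of pairs) and -0.78 in P2rx3-low cells (36.5%). This difference in sign was not tested. Over the 30 cells Spearman's correlation of Gal with Npy was 0.01.

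Nts was 532 ± 509 CPM (SD, n = 18) in Npy-positive and 443 ± 394 CPM (SD, n = 12) in Npy-negative cells, with a log2 ratio of 0.26 and the Npy-positive cell higher in 53.7% of pairs. It was above 10 CPM in 18 of 18 and in 11 of 12 cells, ranging from 44 to 2127 CPM and from 0 to 1239 CPM. The exception was neuron 7, listed at 0 although its Gal was 17962 CPM. In the other kept cells of day 3 Nts stayed low. Its highest value was 19.6 CPM among the 11 SNT-side cells with little Atf3 and 18.1 CPM among the 18 control-side cells. High Nts was thus found in nearly every axotomized neuron with or without Npy.

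**Figure D2:**
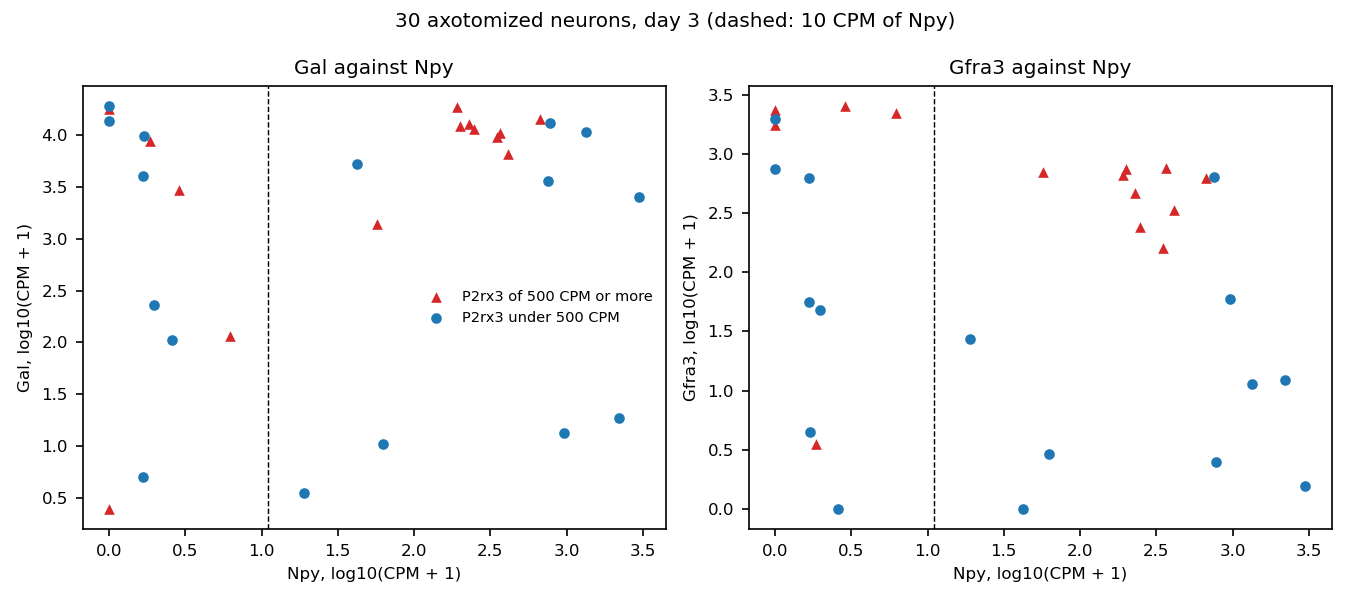
Gal (left) and Gfra3 (right) against Npy, both axes log10(CPM + 1), in the 30 axotomized neurons of day 3, with red triangles for P2rx3 of 500 CPM or more and blue dots for cells under it. The dashed line is the Npy limit of 10 CPM. High and low Gal occur on both sides of it, and among the red triangles the highest Gfra3 values, up to 2535 CPM, lie on the Npy-negative side.

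The markers of neuron size also overlapped. Nefh, the heavy neurofilament subunit of large neurons, was 390 ± 453 CPM (SD, n = 18) in Npy-positive and 312 ± 442 CPM (SD, n = 12) in Npy-negative cells, with ranges of 44.5 to 1550 and 9.61 to 1605 CPM. The log2 ratio was 0.32 and the Npy-positive cell was higher in 55.1% of pairs. The ratio was 0.044 without Npy-positive neuron 3 and 1.002 without Npy-negative neuron 29, the cell with 1605 CPM. Prph, the peripherin of small neurons, was 1720 ± 884 and 1330 ± 845 CPM, a log2 ratio of 0.37. Nefm was 1203 against 1220 CPM (log2 ratio -0.02) and Nefl 3821 against 3108 CPM (0.30). P2rx3 divided the cells into high and low ones in both groups. It was at least 500 CPM in 9 of 18 Npy-positive cells (50.0%, 26% to 74.0%) and in 5 of 12 Npy-negative cells (41.7%, 15.2% to 72.3%), with no cell between 154 and 941 CPM. Npy at this day was therefore present in Nefh-rich cells and in P2rx3-rich cells alike. Among the Npy-positive cells the 9 with high P2rx3 had Npy of 56.3 to 669 CPM and Nefh of 44.5 to 178 CPM, and the 9 with low P2rx3 had Npy of 18.0 to 3006 CPM and Nefh of 239 to 1550 CPM. The 6 highest Npy values, from 759 to 3006 CPM, were all in P2rx3-low cells.

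Across the transcriptome the 2 groups were much alike. With genes averaging at least 10 CPM over the group means considered, 9001 genes remained, their median log2 ratio was -0.01, and 92.5% of them lay within 1.5-fold of each other in the 2 groups. 92 genes (1.02%) were at least 2-fold higher in Npy-positive cells and 95 (1.06%) at least 2-fold lower. With medians over cells in place of means the numbers were 257 higher and 116 lower, and with means of log2(CPM + 1) they were 197 and 82. A mean ratio can rest on 1 cell, so the overlap of the cells was also followed. 13 genes (0.144%) were past 2-fold and higher in the Npy-positive cell in at least 80% of pairs, and 4 (0.0444%) were past 2-fold and higher there in at most 20% of pairs. Npy was the only gene among the 9001 whose values did not overlap at all between the groups (1 gene, 0.0111%), and this was fixed by the split.

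**Figure D3:**
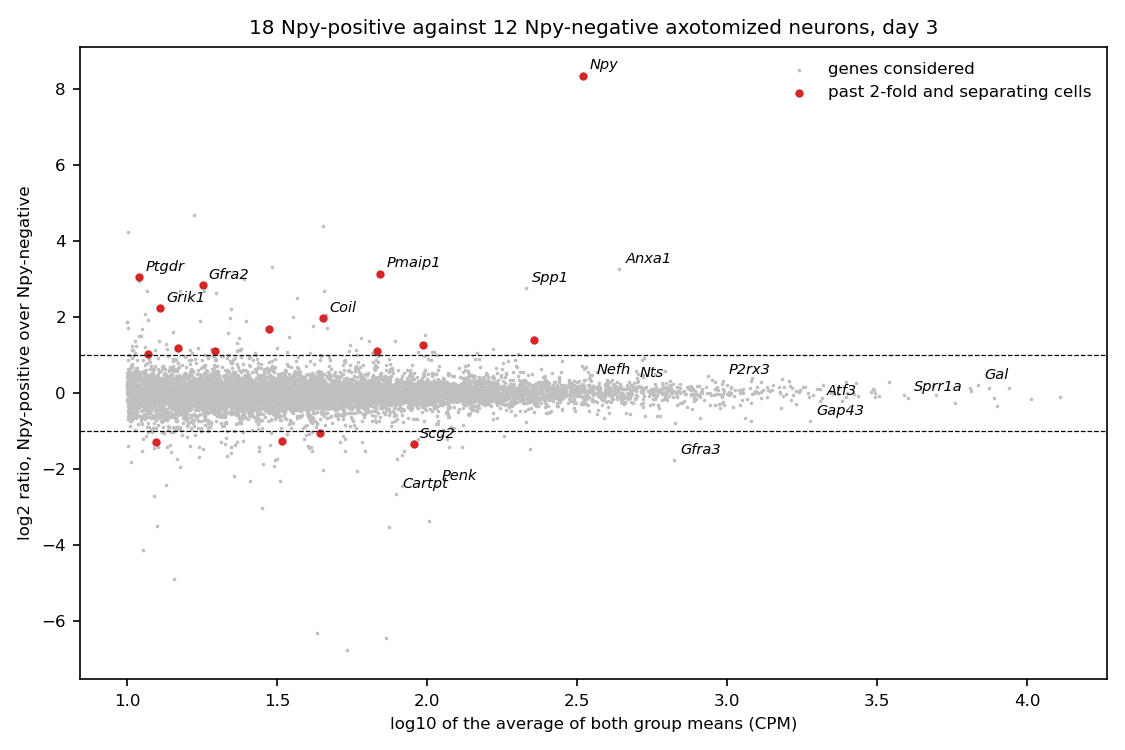
Log2 ratio of mean CPM + 1, 18 Npy-positive over 12 Npy-negative neurons, against the log10 of the average of both group means in CPM, for the 9001 genes considered. Red points are the 13 higher and 4 lower genes that were past 2-fold and separated the cells, dashed lines mark 2-fold, and Gal, Nts, Nefh, P2rx3 and Sprr1a lie near 0.

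After Npy itself, the gene with the largest ratio among those that separated the cells was Pmaip1, which codes for the pro-apoptotic BH3-only protein Noxa. It was 126 ± 118 CPM (SD, n = 18) in Npy-positive and 13.5 ± 13.97 CPM (SD, n = 12) in Npy-negative cells, a log2 ratio of 3.135, and it was higher in the Npy-positive cell in 94.4% of pairs. Npy-positive cells, all 18 above 10 CPM, had a median of 95.8 and a highest value of 498 CPM, and Npy-negative cells ran from 0 through 11.4 to 45.7 CPM. At a level of 50 CPM, set after the values were seen, 12 of 18 Npy-positive cells (66.7%, 40.99% to 86.7%) and 0 of 12 Npy-negative cells (up to 26.5%) were above it. The 3060 summed counts of the Npy-positive cells gave 124 CPM (95% exact Poisson interval 119 to 128) and the 177 counts of the Npy-negative cells 12 CPM (10.3 to 13.9). The median was 0 in control-side cells, with a highest value of 11.7 CPM, and 1.17 CPM with a highest of 18.2 CPM in the SNT-side cells with little Atf3. Within the 18 Npy-positive cells Spearman's correlation of Pmaip1 with Npy was -0.10, so the level of one did not track the level of the other there.

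5 other genes higher in Npy-positive cells, all among the 13 that separated them, were Gfra2, Ptgdr, Grik1, Lgr4 and Ptpro. Gfra2, the co-receptor for the survival factor neurturin, was 32.02 ± 31.1 CPM (SD, n = 18) against 3.64 ± 3.2 CPM (SD, n = 12), a log2 ratio of 2.83 with 85.6% of pairs, and was above 10 CPM in 12 of 18 against 0 of 12 cells. Ptgdr, a prostaglandin D2 receptor, was 20.3 ± 20.1 against 1.59 ± 3.56 CPM (3.04, 86.8% of pairs), and above 10 CPM in 9 of 18 against 1 of 12 cells. Grik1, a kainate receptor subunit, was 21.9 ± 23.2 against 3.89 ± 4.75 CPM (2.23, 80.6%). Lgr4, a receptor for R-spondins, was 92.9 ± 45 against 42.95 ± 30.04 CPM (1.10, 82.9%), and Ptpro, a receptor-type tyrosine phosphatase, 137 ± 71.1 against 56.4 ± 84.9 CPM (1.26, 81.5%). Gfra2, Ptgdr and Grik1 had higher medians still in control-side cells. The medians in control-side cells of day 3 were 74.2, 35.99 and 112 CPM, against 22.1, 15.7 and 16.1 CPM in Npy-positive and 3.327, 0 and 0.916 CPM in Npy-negative cells. In the 11 SNT-side cells with little Atf3 the medians were 13.5, 73.9 and 102 CPM. By medians the Npy-positive cells thus lay between the Npy-negative and the control-side cells for these 3 genes, whereas Pmaip1 was lowest in the control-side cells.

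The other genes past 2-fold that separated the cells upward were Coil, which codes for the Cajal body protein coilin, Tmem98, Scpep1, a serine carboxypeptidase, Dcaf4, a substrate receptor of cullin ubiquitin ligases, Ccdc85a, and Setd1a, a histone methyltransferase. Coil was 72.0 ± 49.0 against 17.7 ± 16.7 CPM (log2 ratio 1.97, 90.3% of pairs), with a control-side median of 10.4 CPM. Scpep1 was 329 ± 232 against 126 ± 98.05 CPM (1.38, 84.7%), with a control-side median of 33.2 CPM. Both thus had their highest day-3 median in the Npy-positive cells. Tmem98 had a log2 ratio of 1.68, Dcaf4 of 1.17, Ccdc85a of 1.09 and Setd1a of 1.03, the last being outside the rule for named genes and chosen after its values were seen. Single cells mattered for several of these ratios, in both directions. Without Npy-negative neuron 42 the ratio of Tmem98 was 2.60, without neuron 10 that of Ptpro was 1.98, and without neuron 43 that of Ptgdr was 3.74, in each case further from 0. Without Npy-positive neuron 39 the ratio of Ccdc85a was 0.93, and without Npy-negative neuron 43 that of Lgr4 was 0.99, both under 2-fold. In GENCODE vM21, exons of Coil, Ptgdr and Scpep1 overlap those of another gene, on the opposite strand for Ptgdr and Scpep1, and without strand the reads of both cannot be told apart.

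**Figure D4:**
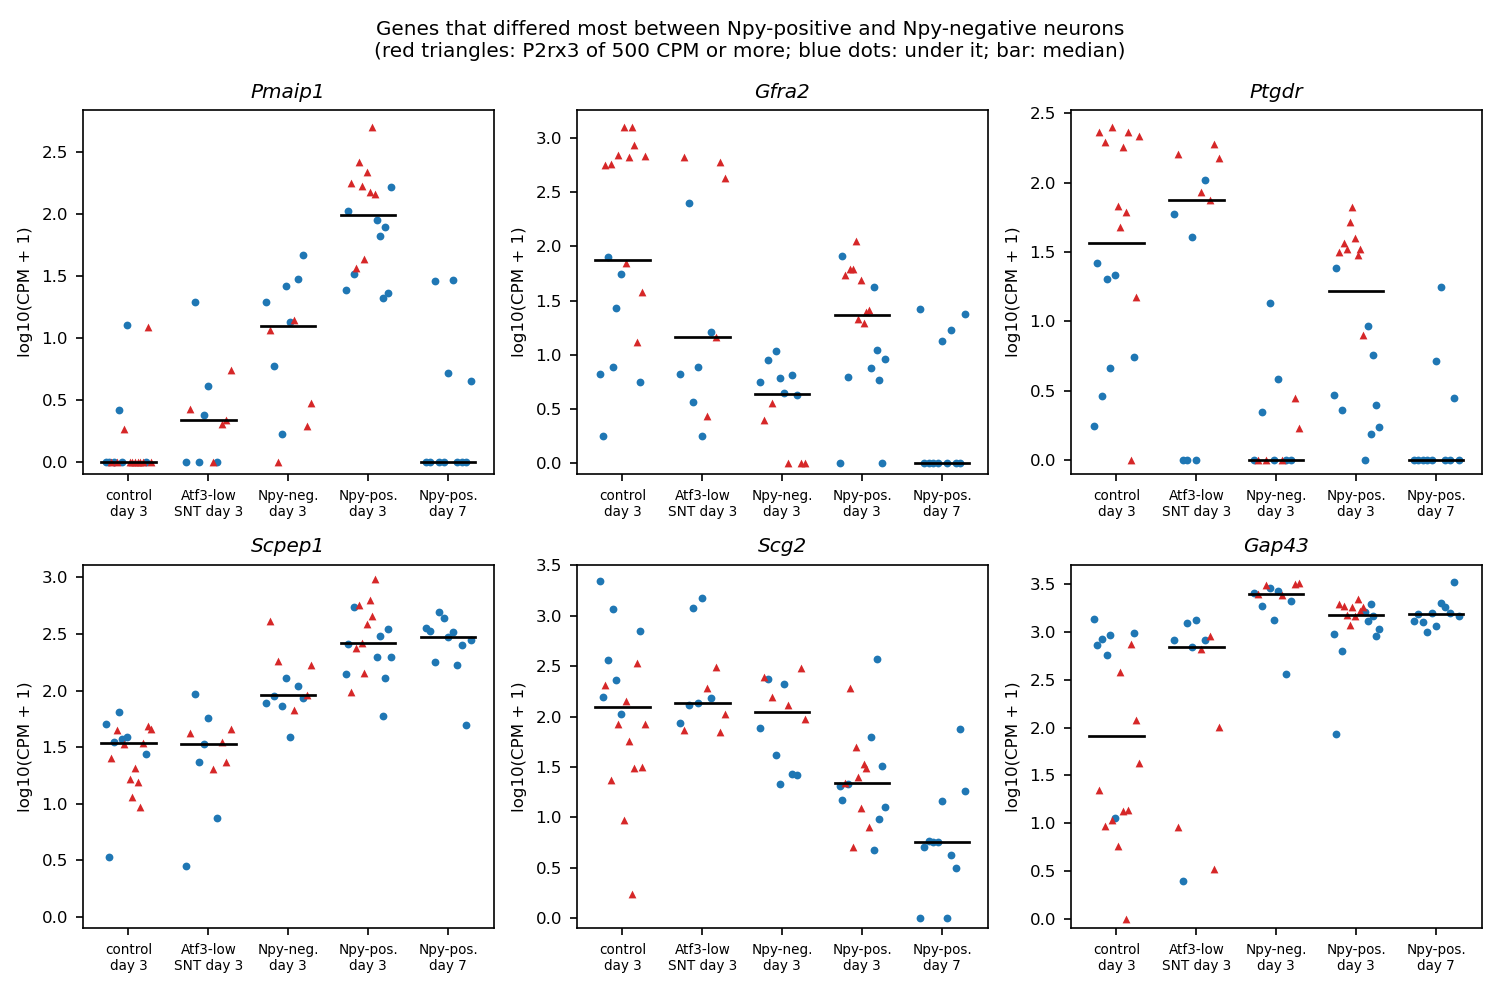
Pmaip1, Gfra2, Ptgdr, Scpep1, Scg2 and Gap43 as log10(CPM + 1), 1 point per neuron ordered by Npy, in the 5 sets of cells named above, with medians as bars and red triangles for P2rx3 of 500 CPM or more. Pmaip1 has medians of 0 in control-side and day-7 cells, 1.17 CPM in SNT-side cells with little Atf3 and 95.8 CPM in Npy-positive cells of day 3, and Gap43 has medians of 2532 CPM in Npy-negative and 1507 CPM in Npy-positive cells.

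Of the 95 genes past 2-fold lower in Npy-positive cells, the 4 that separated the cells were Scg2, Nrip2, Zbtb20 and Clvs1. Scg2, which codes for secretogranin II of dense-core vesicles, was 50.6 ± 90.6 CPM (SD, n = 18) against 130 ± 99.4 CPM (SD, n = 12), a log2 ratio of -1.35, and the Npy-positive cell was higher in 18.5% of pairs. Its medians were 20.7 and 111 CPM, and 124 CPM in control-side cells, so that the Npy-negative cells lay near the control-side median. Without Npy-positive neuron 11, which had 372 CPM, the ratio was -2.01. Zbtb20, a transcriptional repressor, was 18.9 ± 11.2 against 46.5 ± 27.6 CPM (-1.25, 18.98% of pairs), Nrip2 6.79 ± 4.49 against 18.1 ± 11.5 CPM (-1.29, 18.1%), and Clvs1, a lipid-binding protein of clathrin-coated vesicles, 28.3 ± 16.8 against 59.4 ± 28.7 CPM (-1.04, 13.4%). Without Npy-negative neuron 43 the ratio of Clvs1 was -0.90, under 2-fold. Exons of Nrip2, Zbtb20 and Clvs1 overlap those of other genes.

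At less than 2-fold, Gap43 and Maged1 separated the groups further than most genes. Gap43, the growth cone protein that rises in regenerating neurons, was 1420 ± 538 CPM (SD, n = 18) in Npy-positive and 2367 ± 847 CPM (SD, n = 12) in Npy-negative cells, a log2 ratio of -0.74 with 14.8% of pairs. Both medians, 1507 and 2532 CPM, were above that of the control-side cells, 80.8 CPM, which hides a wide spread. Control-side cells ran from 0 CPM in neuron 7 to 1370 CPM in neuron 1. SNT-side cells with little Atf3 ran from 1.46 CPM in neuron 18 to 1341 CPM in neuron 31. Maged1, a MAGE family protein that binds the neurotrophin receptor p75, was 900.3 ± 248 against 1496 ± 529 CPM (-0.73, 12.04%). The remaining genes that the rule named as lower were Mettl5 (log2 ratio -0.99), Hexdc (-0.98) and Golm1 (-0.80), whose exons overlap those of other genes, Fbxo6 (-0.79), Triqk (-0.73) and Tet3 (-0.69), a DNA demethylase, which was 60.2 ± 33.3 against 98.1 ± 36.1 CPM. At any fold, 38 of the 9001 genes were higher in the Npy-positive cell in at least 80% of pairs and 22 in at most 20%.

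P2rx3-high and P2rx3-low neurons were then compared separately, a division chosen after the data were seen. Of the 16 genes besides Npy that were past 2-fold and separated the cells, 16 had a ratio of the same sign in both kinds of neuron and 8 were past 2-fold in both. These 8 were Pmaip1, Gfra2, Grik1, Coil, Scpep1, Setd1a, Nrip2 and Zbtb20. For Gfra2 and Grik1 the P2rx3-low cells overlapped broadly. There the Npy-positive cell was higher in 61.9% and 58.7% of pairs, against 100% and 95.6% in P2rx3-high cells. For Pmaip1, Coil and Scpep1 the share in P2rx3-low cells was 84.1%, 84.1% and 90.5%. Both kinds of neuron are part of the whole comparison, so the shared sign is a description and not a second observation. For Pmaip1 the means were 187 ± 138 CPM (SD, n = 9) against 5.21 ± 5.91 CPM (SD, n = 5) in P2rx3-high cells and 65.7 ± 47.8 CPM (SD, n = 9) against 19.4 ± 15.4 CPM (SD, n = 7) in P2rx3-low cells. The first pair of ranges, 35.2 to 498 and 0 to 12.7 CPM, did not overlap, whereas the second, reaching 162 CPM in the Npy-positive and 45.7 CPM in the Npy-negative cells, did.

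In the 14 P2rx3-high cells the groups stood further apart. 223 of 8876 genes (2.51%) were past 2-fold higher and 407 (4.59%) past 2-fold lower in the 9 Npy-positive cells than in the 5 Npy-negative cells, and with so few cells a mean moves easily. The Npy-positive cells had Gfra2 of 18.5 to 110.1 CPM against 0 to 2.57 CPM, and Ptgdr of 7.04 to 66.1 CPM against 0 to 1.78 CPM, without overlap. Of the 8876 genes, 28 (0.315%) did not overlap upward and 15 (0.169%) downward. Past 2-fold, 176 (1.98%) were higher in the Npy-positive cell in at least 80% of pairs and 191 (2.15%) in at most 20%, many more than in the whole comparison, and with 9 against 5 cells such a separation is reached more easily. Fam19a4, a secreted protein known from C-LTMRs, the unmyelinated low-threshold mechanoreceptors, was 97.7 ± 109 CPM (SD, n = 9) against 11.1 ± 14.6 CPM (SD, n = 5). Prkcq, a protein kinase C, was 28.6 ± 19.03 against 3.139 ± 4.31 CPM, and Anxa1, an annexin, 1571 ± 1742 against 189.9 ± 253 CPM. In the other direction, Gfra3, the co-receptor for artemin, was 519.9 ± 227 against 1768 ± 1027 CPM. Osmr, a subunit of the oncostatin M and interleukin 31 receptors of itch neurons, was 47.8 ± 54.1 against 283 ± 207 CPM. Adcyap1, the gene of the peptide PACAP, was 95.6 ± 90.9 against 861 ± 648 CPM, and Gap43 was 1174 to 2207 CPM in the Npy-positive and 2441 to 3294 CPM in the Npy-negative cells. Gfra3 was at least 1758 CPM in 4 of the 5 Npy-negative cells, and the fifth, neuron 35, had 2.55 CPM of Gfra3 and 2060 CPM of Nefm.

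In the 16 P2rx3-low cells, 148 of 8914 genes (1.66%) were past 2-fold higher and 168 (1.88%) past 2-fold lower in the 9 Npy-positive than in the 7 Npy-negative cells. Of these, 46 (0.516%) and 29 (0.325%) separated the cells, and 2 genes (0.0224%) did not overlap upward and 2 (0.0224%) downward. Nefh was 691 ± 481 CPM (SD, n = 9) against 461 ± 536 CPM (SD, n = 7), with 74.6% of pairs. Ntrk3, the neurotrophin-3 receptor of proprioceptors and other large neurons, had a median of 72.6 CPM in Npy-positive and 0 CPM in Npy-negative cells, and Fst, the activin antagonist follistatin, had medians of 125 and 31.2 CPM. Npy-negative cells of this kind were mixed. Neurons 29, 32 and 42 had Nefh of 1605, 355 and 631 CPM with Ntrk3 of 83.4 to 93.03 CPM, whereas neurons 12, 5, 43 and 27 had no Ntrk3 and Nefh of 86.8 to 210 CPM. Calca, the gene of the peptide CGRP, showed how 1 cell can carry a mean. It reached 9267 CPM in Npy-positive neuron 11 alone and its median over the Npy-positive cells of this kind was 2.40 CPM, against 36.5 CPM in the Npy-negative cells.

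Marker lists of neuron types were described by their genes considered (plot of gene lists). Of all genes considered, 1.02% were past 2-fold higher and 1.06% past 2-fold lower. Within each list but that of large myelinated neurons, the genes past 2-fold went in the same direction, and few genes were considered. Of the 25 markers of large myelinated neurons, 20 were considered, 1 was past 2-fold higher (Spp1, osteopontin) and 1 lower (Cacna1h, a T-type calcium channel), and the median log2 ratio was 0.18 beside -0.01 for all genes considered. The Spp1 ratio of 2.75 rested on neuron 3 with 5962 CPM and was -0.34 without it. Of 16 markers of non-peptidergic nociceptors 6 were considered, 3 were past 2-fold higher (Gfra2, Grik1 and Prkcq, log2 ratio 1.38) and none lower, with a median of 0.98 that was 0.36 without Npy-negative neuron 27. Mrgprd, a receptor that marks many of these nociceptors, was at most 28.6 CPM in any of the 30 cells and was not considered. Of 6 C-LTMR markers 4 were considered, and Fam19a4 (3.323) and Gfra2 were past 2-fold higher, with a median of 1.77 over so few genes. The Fam19a4 ratio was 4.31 without Npy-negative neuron 10. Th, which defines C-LTMRs, was not among those considered, at means of 2.32 CPM in Npy-positive and 5.87 CPM in Npy-negative cells. Control-side neurons 2, 6, 8, 11, 13 and 21 of day 3, rich in Mrgprd, had 28.5 to 112 CPM of Fam19a4. Control-side neurons 4 and 7, with Mrgprd of 1.19 and 0 CPM, had 761 and 1099 CPM of it. Of 10 peptidergic nociceptor markers 8 were considered and 3 were past 2-fold lower, Gfra3 (-1.76), Kit (-1.28) and Fam19a1 (-1.30), with a median of -0.56 that was -1.36 without Npy-positive neuron 11. The Kit ratio was -0.33 without Npy-negative neuron 7 and -1.87 without Npy-positive neuron 21. Of 10 itch neuron markers 7 were considered and 3 were past 2-fold lower, Nppb, Osmr (-2.44) and Htr1f (-1.05), with a median of -0.17. The Osmr ratio was -3.07 without Npy-positive neuron 45. Nppb came from neuron 10 alone, with 343 CPM, and was listed at 0 in every Npy-positive cell. Gfra3 ranged from 0 to 758 CPM in Npy-positive and from 0 to 2535 CPM in Npy-negative cells, and the Npy-positive cell was higher in 34.03% of pairs.

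**Figure D5:**
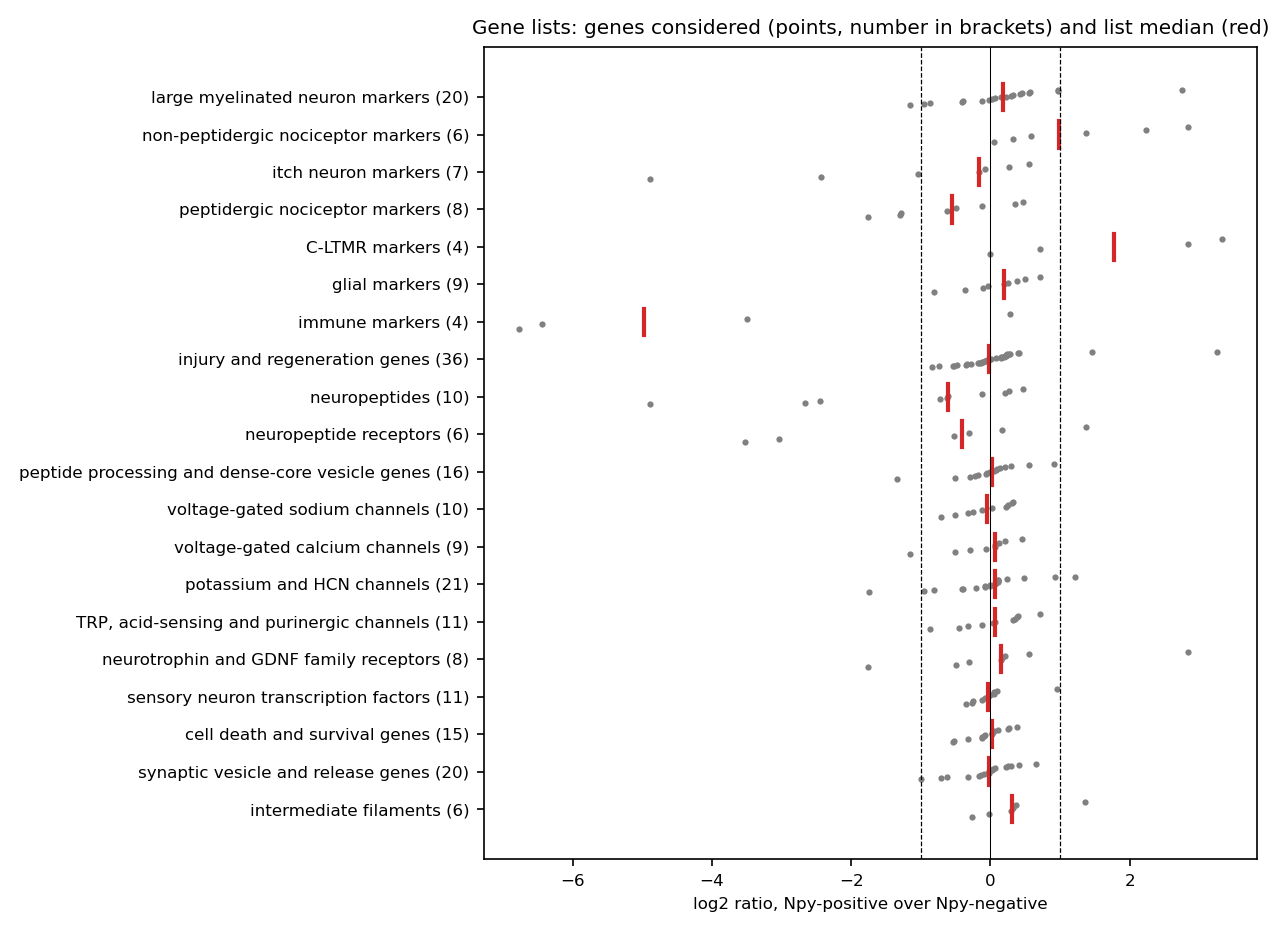
Log2 ratio of mean CPM + 1, Npy-positive over Npy-negative, of each gene considered (points) in 20 gene lists, with the number of genes in brackets, the list median in red and 2-fold as dashed lines. The injury, sodium channel, transcription factor, cell death and synaptic lists centre near 0, and the immune list is set by 1 cell.

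Most genes of the injury and regeneration list had similar means in both groups. Of 39 genes 36 were considered, 2 were past 2-fold higher, Anxa1 and Fst, and none were past 2-fold lower, with a median log2 ratio of -0.02. Sprr1a, a cornified envelope protein strongly raised by axotomy, was 3824 against 4166 CPM, the transcription factors Jun and Sox11 were 446 against 384 CPM and 513 against 460 CPM, the stress gene Gadd45a was 258 against 268 CPM and the cell cycle inhibitor Cdkn1a 740 against 829 CPM. Bdnf, the brain-derived neurotrophic factor, was 70.4 against 59.9 CPM and Csf1, the macrophage growth factor, 283 against 342 CPM. Anxa1 was 790 ± 1440 CPM (SD, n = 18) against 82.4 ± 180 CPM (SD, n = 12), a ratio of 3.247 that was 4.47 without Npy-negative neuron 46, with medians of 45 and 4.87 CPM. Fst was 88.5 ± 84.7 against 31.7 ± 64.9 CPM, a ratio of 1.45 that was 2.58 without Npy-negative neuron 29. Bdnf differed with the kind of neuron. In P2rx3-high cells it was 7.77 ± 8.46 CPM (SD, n = 9) in Npy-positive and 94.0 ± 155 CPM (SD, n = 5) in Npy-negative cells, and in P2rx3-low cells 133 ± 74.9 CPM (SD, n = 9) against 35.5 ± 51.6 CPM (SD, n = 7). In the first its log2 ratio was -3.44 and in the second 1.88, which was not tested, and the 371 CPM of Npy-negative neuron 35 entered the first. Over all 30 cells the Bdnf ratio of 0.23 was 1.13 without neuron 35.

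Among other neuropeptides and their receptors, large ratios came from few cells. Of 20 neuropeptide genes besides Npy, 10 were considered, none were past 2-fold higher and 3 were lower, Nppb, Cartpt (-2.66) and Penk (-2.44), with a list median of -0.61 that was -2.08 without Npy-positive neuron 11. Cartpt was 1452 CPM in Npy-negative neuron 10, and without that cell its ratio was 0.28. Penk, the enkephalin precursor, was 2106 CPM in Npy-negative neuron 13 and at most 467 CPM in any other cell, and without neuron 13 its ratio was 2.23. Of 23 receptor genes 6 were considered. Npy1r and Npy2r, receptors for neuropeptide Y itself, were lower in Npy-positive cells, at 11.1 against 138 CPM (-3.52) and 5.34 against 50.8 CPM (-3.03), yet the Npy-positive cell was higher in 40.7% of pairs for both genes. The Npy1r ratio was -2.78 without Npy-negative neuron 5, and that of Npy2r was -4.28 without Npy-positive neuron 21 and -1.99 without Npy-negative neuron 7. Npy1r was above 100 CPM in 4 Npy-negative cells, neurons 5, 12, 7 and 32, and in no Npy-positive cell, where the highest was 44.1 CPM. Cckar, a cholecystokinin receptor, was 93 against 35.3 CPM (1.37). Of 18 genes for peptide processing and dense-core vesicles 16 were considered, and Scg2 was the single gene past 2-fold. Cpe, carboxypeptidase E that trims peptide precursors, was 688 against 366 CPM (0.91, 80.1% of pairs), Scg5 231 against 157 CPM and Pcsk1, a prohormone convertase, 51.4 against 48.04 CPM.

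Lists of channels, transcription factors and synaptic genes held few or no genes past 2-fold. Of all genes considered 1.02% were higher and 1.06% lower, and lists this small cannot be set against such shares. None of 10 sodium channel genes considered, of 11 TRP, acid-sensing and purinergic channel genes, of 11 sensory transcription factors or of 20 synaptic vesicle genes was past 2-fold, and the list medians were -0.05, 0.06, -0.04 and -0.02. Of 9 calcium channel genes Cacna1h was lower, and of 21 potassium and HCN channel genes Kcnq3 was higher (1.21) and Kcnip2 lower (-1.74). The Kcnip2 ratio was -0.31 without Npy-negative neuron 42 and that of Cacna1h, -1.16, was -0.76 without neuron 12 and -2.12 without Npy-positive neuron 19. Of 8 neurotrophin and GDNF family receptors Gfra2 was higher and Gfra3 lower, while Ret, the signalling subunit that both share, was 719 against 642 CPM (0.16). Of 6 intermediate filament genes Ina, alpha-internexin, was past 2-fold higher (1.35). Among P2rx3-high cells Ina was 202 ± 118 CPM (SD, n = 9) against 50.1 ± 44.2 CPM (SD, n = 5), and among P2rx3-low cells 23.4 ± 69.3 against 39.04 ± 58.7 CPM. None of the 15 cell death and survival genes considered was past 2-fold, with a median of 0.02. That list did not hold Pmaip1, described above, and its members Bbc3, Bcl2l11 and Hrk were under the limit. Bax was 48.3 against 46.4 CPM and Mcl1, to which Noxa binds, 32.9 against 32.04 CPM.

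Markers of other cell types were measured in the same cells. Of 10 glial markers 9 were considered and none were past 2-fold, and their summed level ranged from 894 to 8768 CPM in Npy-positive and from 1429 to 10998 CPM in Npy-negative cells. The satellite glia gene Fabp7 was above 10 CPM in 17 of 18 and 7 of 12 cells, with means of 79.0 and 139 CPM. Of 9 immune markers 4 were considered, and the neutrophil genes S100a8 and S100a9 and the lysozyme gene Lyz2 were past 2-fold lower, at 1710, 1297 and 262 CPM in Npy-negative neuron 46. The immune markers together ranged from 1.28 to 51.5 CPM in Npy-positive cells and from 3.03 to 3306 CPM in Npy-negative cells. Without neuron 46 the median ratio of the immune list was 0.19 in place of -4.97. The 5 erythrocyte markers were all under the limit, with sums of at most 29.4 CPM. Whether glial or immune transcripts had a part in other ratios was not tested.

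The 8 genes whose level followed Npy most closely over the 30 cells, by Spearman's correlation among genes considered, were Tspan17 (0.66), Pmaip1 (0.64), Ctage5 (0.61), Uhmk1 (0.61), Ano4 (0.59), Rab4b (0.59), Txn2 (0.58) and Mrps7 (0.58). The points are libraries of different depth and of at least 2 kinds of neuron, and the split itself puts 12 cells near 0. Within the 18 Npy-positive cells these correlations were lower, from -0.10 for Pmaip1 to 0.46 for Ctage5. Tspan17, a tetraspanin, was 672 ± 111 CPM (SD, n = 18) against 473 ± 129 CPM (SD, n = 12), with 88.0% of pairs. Ano4, an anoctamin, had medians of 57.2 and 7.87 CPM, and its ratio of 0.85 became 2.17 without Npy-negative neuron 29.

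At day 7 the same limits left almost no Npy-negative neuron. Of 33 SNT-side cells 12 had Atf3 of 500 CPM or more, 11 of them were Npy-positive with 286 to 6483 CPM (median 1177) and 1, neuron 16, had 9.28 CPM. A comparison of groups could not be made there. Day, strain, sex, DRG level, batch of mice, read length and kind of neuron cannot be told apart. Libraries of the 11 cells were also smaller, with a median of 737802 counts against 1352530 in Npy-positive cells of day 3. Nefh was 480.0 to 2822 CPM (median 1523) in the 11 cells, and P2rx3 was at most 7.46 CPM in 10 of them. The other cell, neuron 29, had 461 CPM of P2rx3, the lowest Nefh and, at 8330 CPM, the highest Gal of the 11. The genes set apart by Npy at day 3 were not all high in them. Pmaip1 had a median of 0 and a highest value of 27.99 CPM, and Gfra2 a median of 0 with a highest of 25.4 CPM, whereas Scpep1 had a median of 294 CPM and Coil of 42.02 CPM, near the 260.1 and 57.3 CPM of Npy-positive cells at day 3. All 11 had P2rx3 under 500 CPM. The 9 P2rx3-low Npy-positive cells of day 3 had medians of 65.0 CPM for Pmaip1 and 6.53 CPM for Gfra2. Their medians were 198 CPM for Scpep1 and 39.3 CPM for Coil. Scg2 was low in the day-7 cells, with a median of 4.66 CPM. Nts was 95.2 to 1262 CPM, and Gal, at a median of 49.6 CPM, was listed at 0 in 5 of the 11 cells. The Npy-negative neuron 16 had Pmaip1 at 0, Scg2 of 1.16 CPM, Scpep1 of 278 CPM and Coil of 46.4 CPM, all within the range of the 11 Npy-positive cells of that day.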

How the data were processed

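Single neurons were sequenced after Smart-seq2 amplification. According to the submitters' processing notes and the study's methods, the authors used CASAVA 1.8.2, mapped reads to mm9 with Bowtie2 and estimated gene levels with RSEM. The deposited tables are named TPM, but their values are expected counts of RSEM as deposited by the authors: library totals differ, and 62.1% to 72.2% of the values above 0 in an axotomized cell are whole numbers. The authors removed outlier cells from the table used here. Both tables list the genes in the same order, 27 symbols differ between them, and those of the outlier-removed table were used. 6 columns of pooled libraries were not used.

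Values were scaled to CPM by the column sum of each cell, with Python 3.11.15, numpy 2.4.6, pandas 2.3.3, scipy 1.17.1 and matplotlib 3.10.9. CPM has no length correction, so levels were compared within a gene only. Genes averaging at least 10 CPM over the 2 group means were considered. The ratio was the log2 of mean CPM + 1 in Npy-positive over Npy-negative cells, and the share of cell pairs counted ties equally for both sides. Genes separating cells were higher in at least 80% or at most 20% of pairs. Because the labels name no animal, no test was run and no p-value is given. Intervals are 95% exact binomial or Poisson intervals.

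Named genes were Npy, Atf3, Gal, Nts, the members of the gene lists, the 12 largest ratios in each direction among genes considered that separated the cells and were above 10 CPM in at least 50% of the cells of the higher group, and the 8 genes with the highest Spearman correlation with Npy over the 30 cells. The members, lists and rules were chosen with earlier results of these data known, and a few genes named beside them were chosen after their values were seen. The division by P2rx3 was added after the data were seen. The code was tested on simulated data. Other limits for Atf3 and Npy, another pseudocount, medians, means of logs, other limits on low values, other scalings, equal depth, the outlier cells and leaving out each cell were tried. Promoter windows were from RefSeq and exon overlaps from GENCODE vM21, looked up by symbol for 54 of 55 genes. Some items are not reported here.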

Additional observations from a re-analysis of the deposited data

Results flagged for a closer look

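Npy was also present in SNT-side cells of day 3 that the authors had removed as outliers and that entered no comparison. The highest was neuron 40 with 2620 CPM of Npy, beside Atf3 of 179.7 CPM and Nefh of 1674 CPM, and neuron 38 had 579 CPM of Npy beside Atf3 of 82.2 CPM. In 5 of the 7 removed cells Npy was above 9.50 CPM, the highest value among the control-side cells of day 3. None of the 7 reached 500 CPM of Atf3, the highest being 255 CPM in neuron 34, so none would have been a member. The totals of neurons 40 and 38 were 389656 and 401682 counts, below the lowest total of the 30 axotomized cells.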

How the results depend on the processing

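The number of genes past 2-fold was 92 higher and 95 lower in Npy-positive cells, with 13 and 4 of them separating the cells. With a pseudocount of 10 CPM these were 42 and 52, and 1 separating gene was lower. Medians over cells gave 257 higher and means of logs 197 higher. Without a limit on low values the 4 numbers were 351, 421, 22 and 9, and with a limit of 50 CPM they were 22, 26, 5 and 1, as that limit leaves fewer genes. Npy above 1 CPM as the limit gave 8 separating lower genes and equal depth 7. P2rx3-high cells alone gave 223, 407, 176 and 191, and P2rx3-low cells alone 148, 168, 46 and 29. Leaving out each cell in turn gave 84 to 122 higher, 92 to 117 lower, 11 to 22 separating higher and 3 to 10 separating lower genes. Apart from the effect of the 50 CPM limit, the cause was not tested. An Atf3 limit of 100 CPM and adding the outlier cells left the same 30 members.

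Of the medians of gene lists, that of the immune markers, -4.97, was 4.39 with Npy above 1 CPM, which moves neuron 46 to the positive side, and -2.58 with the pseudocount of 10 CPM, 0 with medians, -0.84 with means of logs, -0.34 without a limit and -6.61 with a limit of 50 CPM, and it ran from -6.75 to 0.19 over the cells left out. The C-LTMR median of 1.77 was 0.47 without a limit and 3.03 in P2rx3-high cells, where the median of neurotrophin and GDNF family receptors was -0.95 and that of intermediate filaments -0.32. Ratios that changed sign with Npy above 1 CPM were those of Nppb (3.97), Lyz2 (1.96), S100a8 (4.39), S100a9 (5.87) and Cartpt (2.05). Medians turned Lyz2 to 0.72, Cartpt to 1.64 and Kcnip2 to 0.56, and means of logs Cartpt to 0.048. Over the cells left out, Spp1 ran from -0.34 (without Npy-positive neuron 3) to 3.95, Cartpt from -3.20 to 0.28 (without Npy-negative neuron 10) and Penk from -4.53 to 2.23 (without Npy-negative neuron 13). In P2rx3-high cells Spp1 was -1.95 and Kcnip2 0.74, and in P2rx3-low cells Prkcq was -1.06 and Ina -0.71. Of 3068 other values of named gene ratios, 3032 moved by less than 1 SD over cells. Part of these could not move. An Atf3 limit of 100 CPM and the outlier cells left the members unchanged, and the limits on low values only choose genes. The SD is that of single cells within the groups, which is wide for a ratio of group means. The count is therefore no measure of how firm the ratios are. No paired analysis was possible because the cell numbers in the labels only name cells, and all cells compared come from 1 side and day.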
